A study of Arabidopsis thaliana with 14 samples.

Results

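The 10 Arabidopsis thaliana genes described here hold or take up iron. They are the 4 ferritin genes FER1, FER2, FER3 and FER4, the iron transporter gene IRT1, the ferric reductase gene FRO2, and the basic helix-loop-helix regulator genes FIT, BHLH38, BHLH39 and BHLH100. They were chosen by locus, from probes whose transcript maps to AT5G01600, AT3G11050, AT3G56090, AT2G40300, AT4G19690, AT1G01580, AT2G28160, AT3G56970, AT3G56980 and AT2G41240, in that order. The array carried 15 probes for these 10 genes, among 25433 genes with a probe. Of the 10, 7 had a probe that 3 or more arrays of some group measured well above background, and so entered the fit of 18308 genes. IRT1, FIT and BHLH100 did not pass that filter, and their levels are given by array.

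Total RNA of whole seedlings was measured on 14 single-colour arrays in 4 groups. Wild type was the accession Col-0, and the other genotype was a transgenic line in the Col-0 background in which 35S, a constitutive viral promoter, drives a fusion of yellow fluorescent protein and AFL1 (At14a-Like1, AT3G28270). All seedlings were 7 days old, grown on Murashige-Skoog agar in continuous light, when they were transferred. Control seedlings went to new agar of the same kind and stressed seedlings to agar lowered to -1.2 MPa by polyethylene glycol infusion, and both were collected after 10 h. Each treatment had 4 wild-type and 3 35S:YFP-AFL1 arrays. The labels name 1 transgenic genotype and do not say whether it is a single insertion line, nor whether replicates came from separate cultures, so the p-values rest on a spread between arrays that may be technical.

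Iron is scarce in solution at the pH of most soils, and free iron inside a cell drives the formation of reactive oxygen. In Arabidopsis roots, the reductase FRO2 reduces ferric iron at the cell surface and the transporter IRT1 carries the ferrous iron inside. Both genes are activated by FIT in partnership with the clade Ib proteins BHLH38, BHLH39, BHLH100 and BHLH101, which are themselves induced by iron shortage. Ferritins are plastid (for FER4 also mitochondrial) protein shells that store iron, and FER1, FER3 and FER4 are known from leaves while FER2 is known from seeds, where abscisic acid induces it.

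The 75th percentile of the signal, to which all levels are scaled, ran from 796.2 to 1591 over the arrays, and the share of probes well above background was 59.62% to 67.12%. AFL1 itself was higher in 35S:YFP-AFL1 than in wild type on control plates by 2.41 on the log2 scale (limma adjusted p = 0.00453), with levels of 2.08 to 2.51 against -0.55 to 0.66, but not with slide as a block (1.68, adjusted p = 0.112). At low water potential, where AFL1 rose by 3.73 in wild type and 1.64 in the transgenic line, the genotypes overlapped and differed by 0.32 (95% confidence interval -0.25 to 0.88, adjusted p = 0.526). Wild-type replicate 1 of each treatment shared a slide with all 35S:YFP-AFL1 arrays of that treatment (slide 4 for control, slide 5 for low water potential), and the other wild-type arrays were on slides 1 to 3. Only slide 2 held both treatments, with wild-type control replicate 4 and stress replicate 2. A wild-type stress response with slide as a block therefore rests on that 1 pair. That of 35S:YFP-AFL1 rests on the same pair, combined with the genotype differences within slides 4 and 5. Genes of the shoot (RBCS1A, LHCB1.1 and 4 others) and of the root (endodermis, 6 genes; epidermis, 9 of 10 genes) were measured in these whole seedlings, and 0 of 3 seed storage genes passed the filter. In RNA of whole seedlings, fewer cells of a type and less RNA per cell cannot be told apart.

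The first comparison asked how wild type responded to low water potential. A level is the log2 signal relative to the array's 75th percentile, and it is compared between arrays for 1 probe, never between probes. FER1 had levels of 2.77, 2.07, 2.19 and 2.44 on the 4 wild-type control arrays and of 5.44, 4.64, 4.91 and 5.79 on the 4 arrays at low water potential. The groups did not overlap, and every stressed array lay above every control array. FER1, the main leaf ferritin, rose by 2.83 ± 0.27 (SE) on the log2 scale, or 7.09-fold (95% confidence interval of the log2 difference 2.24 to 3.41, limma adjusted p = 9.59e-07). This change was larger than that of 96.9% of the genes tested. The other FER1 probes gave 3.03 and 3.1 on the log2 scale, with adjusted p over all probes of 2.11e-07 and 3.2e-09.

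FER2, the seed ferritin, changed most among the members in fold. Its levels were -3.22, -2.89, -3.54 and -3.11 on the wild-type control arrays and 1.0, 0.34, 0.23 and 0.62 at low water potential, with no overlap. In linear terms the probe moved from between 8.57% and 13.5% of the 75th percentile to between 117% and 200% of it. FER2 rose by 3.74 ± 0.19 (SE) on the log2 scale, or 13.3-fold (95% confidence interval 3.33 to 4.14, limma adjusted p = 1.68e-09), which was more than 98.4% of the genes tested.

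FER3 and FER4 gave no call in wild type. FER3 had levels of -0.95, -0.29, -0.27 and 0.05 in control and of -2.01, -0.80, -0.11 and -0.77 at low water potential, and the ranges overlapped. Its difference was -0.56 ± 0.32 (SE) on the log2 scale (limma adjusted p = 0.139). FER4 had levels of 1.82, 1.71, 1.95 and 2.27 in control and of 1.47, 1.82, 1.80 and 1.82 at low water potential, with a difference of -0.21 ± 0.14 (SE) and a 95% confidence interval of -0.51 to 0.09 (limma adjusted p = 0.209). The 4 ferritin transcripts therefore did not move together: 2 rose, and 2 had intervals that include 0.

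**Figure D1:**
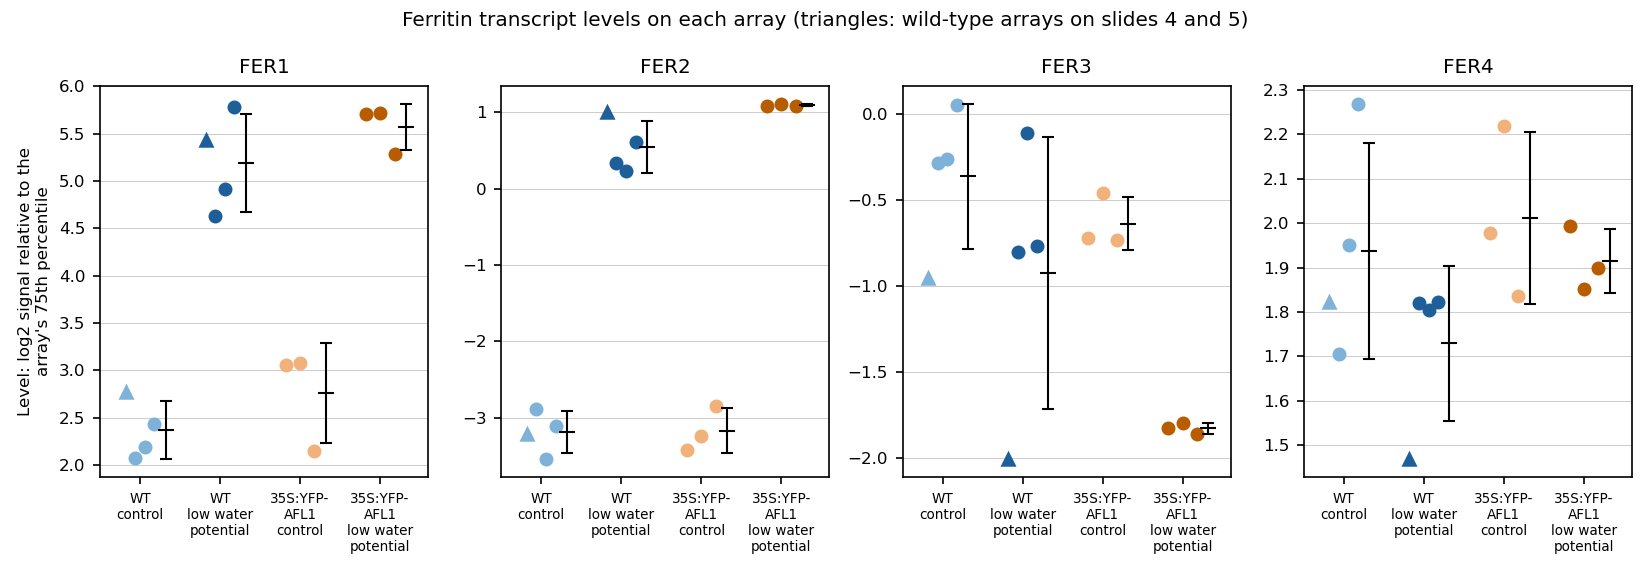
Levels of FER1, FER2, FER3 and FER4 on each of the 14 arrays, as log2 signal relative to the array's 75th percentile, by genotype and treatment. Each point is 1 array, the bar and whiskers are the group mean and SD, triangles are the wild-type arrays on slides 4 and 5, and the vertical scale differs between panels. FER1 and FER2 lie higher on every array at low water potential, and the FER3 triangle at -2.01 lies beside the 35S:YFP-AFL1 arrays at -1.86 to -1.80.

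Among the uptake genes, FRO2 was measured on all 14 arrays. Its levels were -2.49, -2.85, -2.66 and -3.37 in wild-type control and -2.92, -2.60, -3.02 and -2.54 at low water potential. The stress difference was 0.07 ± 0.25 (SE) on the log2 scale with a 95% confidence interval of -0.46 to 0.61 (limma adjusted p = 0.812).

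IRT1 was well above background on 2 of 14 arrays, both of wild-type control, by 1 of its 2 probes. That probe read -4.07, -3.34, -1.11 and -5.42 on the 4 wild-type control arrays, where replicates 2 and 3 were well above background, and -6.38, -6.56, -5.34 and -5.87 at low water potential, where no array was. Replicate 3 alone reached 46.4% of the 75th percentile, against 9.87%, 5.95% and 2.34% for the others, so the spread among wild-type control arrays was wide. The mean control level was at least 4.03-fold above that at low water potential, with an exact two-sided permutation p of 0.0571 (the smallest that 4 against 4 arrays can give is 0.0286). Without control replicate 3 this bound was 2.33-fold, and without control replicate 4 it was 6.3-fold. With no filter on dim probes, limma called IRT1 lower in wild type (-2.55, adjusted p = 0.00728). The groups overlapped by 1 control array, replicate 4. Both control arrays above background were on slide 1, which held no stressed array. On slide 2, which held both treatments, neither array was well above background. Slide and treatment cannot be told apart for this bound. The second IRT1 probe was not well above background on any array, with levels of -6.74 to -5.86 over all 14.

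The regulator genes were dim. FIT was not well above background on any array by either of its 2 probes, with levels of -6.80 to -5.57, and it has no difference that can be given. BHLH38 had levels of -2.74, -2.94, -2.33 and -4.78 in wild-type control and of -3.12, -4.18, -3.23 and -5.25 at low water potential, where replicate 4 of each treatment was not well above background. Its difference of -0.75 ± 0.54 (SE) did not pass the test (limma adjusted p = 0.243). Without wild-type control replicate 4 it was -1.28 (adjusted p = 0.0292). With slide as a block it was 0.60, which is stress replicate 2 against that same dim control replicate 4, the 1 pair on slide 2.

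BHLH39 lies next to BHLH38, with 0 annotated genes between them. Whether their probes each read only 1 of these related transcripts was not tested. BHLH39 had levels of -2.05, -3.99, -3.46 and -4.97 in wild-type control, of which the first 3 were well above background, and of -4.60, -6.89, -4.99 and -6.27 at low water potential, where no array was. The fitted difference was -2.07 (limma adjusted p = 0.0158). With dim arrays raised to their dimmest probe well above background, the level was at least 3.14-fold lower at low water potential. Alternatives gave fitted differences from -3.24 to -0.72, and control replicate 4 lay below the stressed replicate 1. The call was lost with slide as a block (adjusted p = 0.156), without wild-type control replicate 1 (0.0508) and without wild-type stress replicate 2 (0.0534). BHLH100 was well above background on 1 array, wild-type control replicate 3 at -3.77, and its other control arrays read -4.72, -5.41 and -6.70. Its level was at least 1.18-fold lower at low water potential (exact two-sided permutation p = 0.286), and no bound can be given without control replicate 3. On control plates, wild-type replicate 4 gave the lowest wild-type level of IRT1, FRO2, BHLH38, BHLH39 and BHLH100 alike.

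**Figure D2:**
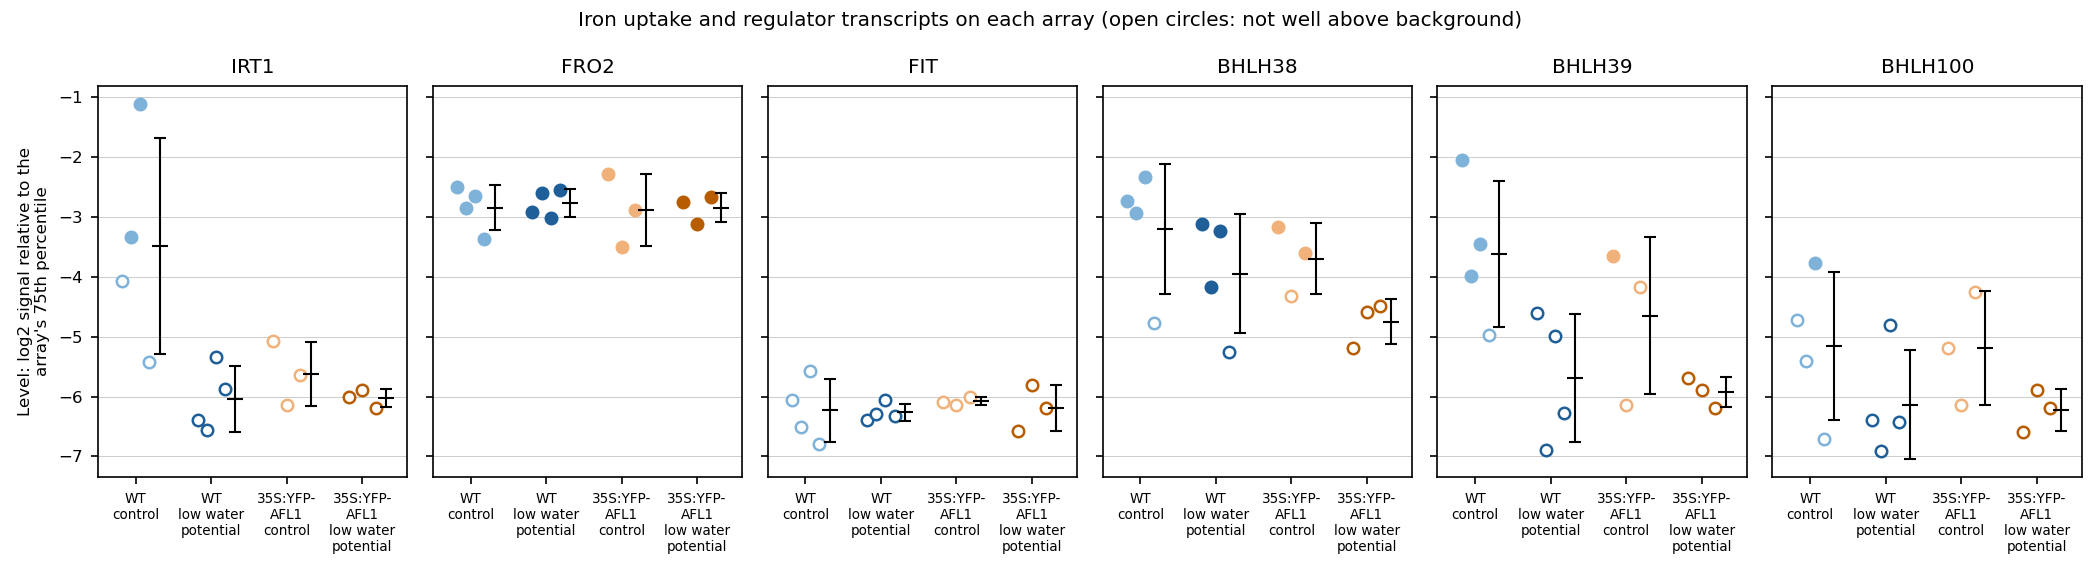
Levels of IRT1, FRO2, FIT, BHLH38, BHLH39 and BHLH100 on each array, as log2 signal relative to the array's 75th percentile; bars and whiskers are the group mean and SD, and levels are not comparable between panels. Filled circles are well above background and open circles are not: FRO2 is filled on all 14 arrays, FIT on none, and IRT1 on 2 wild-type control arrays.

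Of the 7 members in the fit, 2 rose and 1 fell in wild type. The fall is that of BHLH39, which passed the filter only through wild-type control, where it was highest. That choice favours a fall, so this call is weak support for one. Across all genes tested, 64.1% were called in this comparison, 30.7% higher and 33.4% lower, so the members' count of 3 lies below that share. Non-overlapping groups were found for 2 of the 7 members (FER1 and FER2), against 53.3% of all genes.

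The second comparison asked the same in 35S:YFP-AFL1. FER1 had levels of 3.05, 3.08 and 2.15 on the 3 control arrays and of 5.71, 5.72 and 5.29 at low water potential, with no overlap. It rose by 2.81 ± 0.32 (SE), or 7.02-fold (limma adjusted p = 4.16e-06). FER2 had levels of -3.42, -3.23 and -2.85 in control and of 1.09, 1.11 and 1.08 at low water potential. It rose by 4.26 ± 0.22 (SE), or 19.2-fold (limma adjusted p = 2.25e-09). The SD of the FER2 level over the stressed arrays, all on slide 5, was 0.02, against 0.34 in wild type over 3 slides. In control it was 0.29 in 35S:YFP-AFL1, all on slide 4, and 0.27 in wild type, also over 3 slides. The part of slide in these spreads was not tested.

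FER3 fell in 35S:YFP-AFL1. Its levels were -0.72, -0.46 and -0.74 in control and -1.83, -1.80 and -1.86 at low water potential, so that the groups did not overlap. The fall was 1.19 on the log2 scale, or 2.28-fold (SE 0.37, limma adjusted p = 0.0121). With slide as a block the difference was -0.99 and no longer passed (adjusted p = 0.108). The single wild-type pair on the same slides, control replicate 1 on slide 4 and stress replicate 1 on slide 5, differed by -1.06, whereas the mean difference over the wild-type arrays of the other slides was -0.40. FER4 had levels of 1.98, 2.22 and 1.84 in control and of 1.99, 1.85 and 1.90 at low water potential, a difference of -0.10 ± 0.16 (SE, limma adjusted p = 0.615).

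FRO2 read -2.29, -3.50 and -2.88 in 35S:YFP-AFL1 control and -2.76, -3.12 and -2.67 at low water potential, a difference of 0.04 ± 0.29 (SE, limma adjusted p = 0.912). IRT1 was not well above background in either 35S:YFP-AFL1 group, with levels of -5.08, -6.14 and -5.64 and of -6.0, -5.88 and -6.19. BHLH38 read -3.16, -4.33 and -3.60 in control, with 2 arrays well above background, and -5.18, -4.58 and -4.48 at low water potential, with none. It was at least 1.64-fold lower, without a call (limma adjusted p = 0.159), though the groups did not overlap. BHLH39 read -3.65, -6.14 and -4.17 in control, with 1 array well above background, and -5.68, -5.88 and -6.19 at low water potential, with none. This gave at least 1.1-fold (limma adjusted p = 0.169), and no bound without control replicate 1, its 1 array above background. BHLH100 was not well above background in either group.

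In 35S:YFP-AFL1, 2 of the 7 members rose and 1 fell, where 63.3% of all genes were called, 30.1% higher and 33.3% lower. The groups did not overlap for 4 of the 7, against 76.5% of all genes. The stress responses of the 2 genotypes use different arrays, and FER1 and FER2 were called higher under every alternative run for them (30 and 28 wild-type settings, 29 and 27 settings for 35S:YFP-AFL1). With slide as a block the values were 2.20 and 3.45 in wild type, from the 1 pair of arrays on slide 2. They were 2.35 and 3.50 in the 35S:YFP-AFL1 line, whose control arrays were all on slide 4 and stressed arrays all on slide 5. The line's values use the same wild-type pair and are no separate check.

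The remaining comparisons asked whether the genotypes differed. On control plates 0 of the 7 members differed between genotypes, at either an adjusted or an unadjusted p under 0.05, where 0.0218% of all genes were called by limma (4 genes, 0.0109% higher and 0.0109% lower, and 2065 genes at an unadjusted p). FER1 differed by 0.39 with a 95% confidence interval of -0.25 to 1.03. FER2 differed by 0.02 (-0.41 to 0.46), FER3 by -0.28 (-1.02 to 0.47) and FER4 by 0.08 (-0.25 to 0.40). IRT1 was well above background on 2 of 4 wild-type arrays and on 0 of 3 35S:YFP-AFL1 arrays, which gave at least 2.42-fold less in 35S:YFP-AFL1 (exact two-sided permutation p = 0.114, where the smallest possible is 0.0286). That bound was 1.4-fold without wild-type control replicate 3 and 3.78-fold without replicate 4. Both wild-type arrays above background were on slide 1, which held no 35S:YFP-AFL1 array. On slide 4, which held both genotypes, no array was well above background. Slide and genotype cannot be told apart for this bound. At low water potential IRT1 was below background in both genotypes.

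At low water potential, 0 of the 7 members were called by limma, where 2.17% of all genes were (0.475% higher and 1.69% lower). FER2 and FER3 had an unadjusted p under 0.05, out of 3692 such genes. FER2 was 0.55 higher in 35S:YFP-AFL1 (95% confidence interval 0.11 to 0.98, adjusted p = 0.158), and FER3 differed by -0.91 (-1.65 to -0.16, adjusted p = 0.169). For both genes, wild-type stress replicate 1, the wild-type array on slide 5, read like the 35S:YFP-AFL1 arrays of that slide: 1.0 for FER2 and -2.01 for FER3. Within slide 5 the mean of the 35S:YFP-AFL1 arrays differed from this array by 0.10 for FER2 and by 0.18 for FER3. Without it, both genes were called (FER2 0.70, adjusted p = 0.0205; FER3 -1.27, adjusted p = 0.00419). Slide and genotype cannot be told apart over the other wild-type arrays. The groups did not overlap for 2 of the 7 members, FER2 and FER4, against 14.6% of all genes. FER1 differed by 0.38 (-0.26 to 1.01), FER4 by 0.19 (-0.14 to 0.51) and FRO2 by -0.08 (-0.66 to 0.50).

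The difference of the stress responses, 35S:YFP-AFL1 minus wild type, gave 0 calls among the 7 members and 0 among all genes (0% called by limma, with 0 members and 1782 genes at an unadjusted p under 0.05). It was -0.01 for FER1 (95% confidence interval -0.91 to 0.89), 0.53 for FER2 (-0.09 to 1.14), -0.63 for FER3 (-1.68 to 0.42) and 0.11 for FER4 (-0.35 to 0.57). That FER3 passed the test in 35S:YFP-AFL1 and missed it in wild type does not show that their responses differ. For FRO2 the value was -0.03 (-0.85 to 0.79). The intervals for BHLH38 (-2.10 to 1.49) and BHLH39 (-1.42 to 3.02) were wide.

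**Figure D3:**
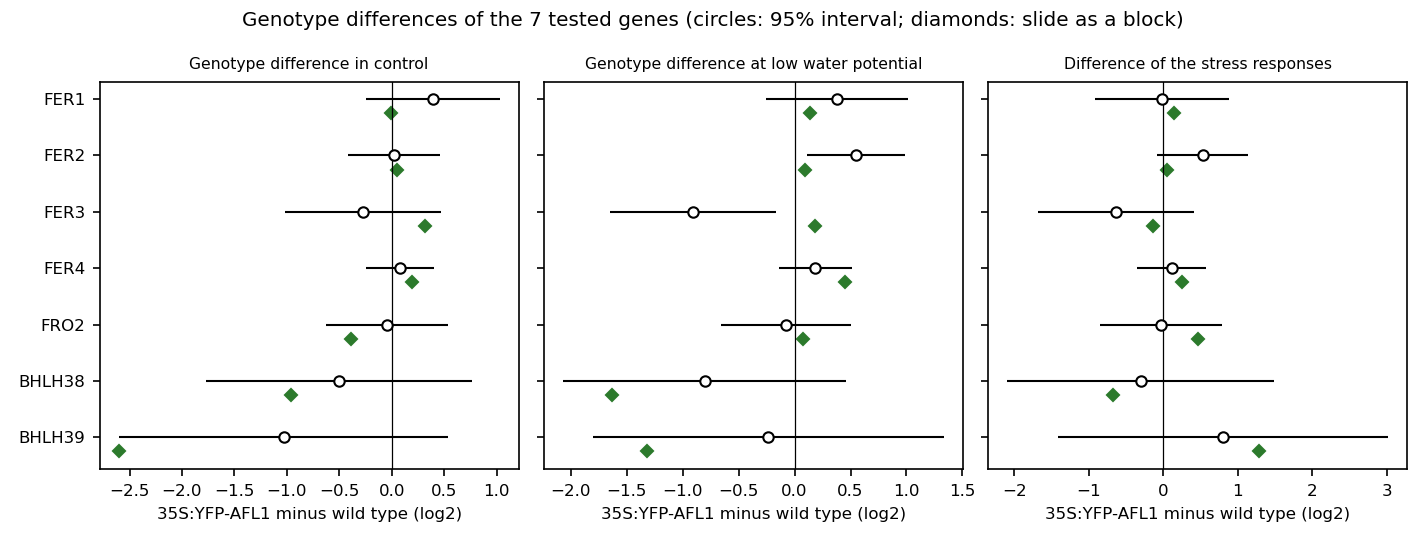
Differences between 35S:YFP-AFL1 and wild type for the 7 tested members, in control, at low water potential and as the difference of the stress responses, in log2 units. Circles with lines are the difference and its 95% confidence interval, and diamonds are the difference with slide as a block: for FER3 at low water potential the circle is at -0.91 and the diamond at 0.18.

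In order of mean level, FER1 stood at 2.37 ± 0.31 (SD, n = 4) in wild-type control, 2.76 ± 0.53 (n = 3) in 35S:YFP-AFL1 control, 5.19 ± 0.52 (n = 4) in stressed wild type and 5.57 ± 0.25 (n = 3) in stressed 35S:YFP-AFL1. The 2 control groups overlapped and so did the 2 stressed groups, so only the step from control to low water potential exceeded the spread. FER2 had the same order of treatments, at -3.19 ± 0.27 and -3.17 ± 0.29 in control and 0.55 ± 0.34 and 1.09 ± 0.02 at low water potential. FER3 ran the other way, from -0.36 ± 0.42 and -0.64 ± 0.16 in control to -0.92 ± 0.79 and -1.83 ± 0.03, and its wild-type groups overlapped each other.

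The genes with a symbol whose levels followed FER1 most closely over the 14 arrays, by Pearson's r as the measure of likeness, were EGY3 (0.989), SOM (0.986), RbcX2 (0.984), GGH2 (0.983) and CYP96A1 (0.982). These values rest largely on the step between treatments, which all 14 arrays share. After each group's mean was removed, they were 0.804, 0.839, 0.722, 0.736 and 0.774. SOM, a zinc-finger protein known from seed germination, differed by 5.31 in wild type, and 6.14 in the 35S:YFP-AFL1 line, and RbcX2, a chaperone of Rubisco assembly, by 1.74 and 1.72. For BHLH39 the closest genes were CYP51G1 (0.902), PFA-DSP1 (0.891), GIK (0.865), UCC2 (0.848) and CRK25 (0.842). CYP51G1, a sterol demethylase, differed by -0.33 and -0.27, and many BHLH39 values lay below background.

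The rest of the iron pathway was read from 70 further genes in 6 lists, of which 68 had a probe and 55 were tested. In wild type 16 rose and 22 fell, with a median change of -0.22 against -0.03 over all genes, of which 30.7% rose and 33.4% fell. In 35S:YFP-AFL1, 13 rose and 24 fell, with a median of -0.31, or -0.18 with genes below background set at their bound, where 30.1% of all genes rose and 33.3% fell. The excess of falls depended on the scaling: median centring gave 19 and 19 in wild type, and 18 and 21 in the transgenic line. With slide as a block 8 rose and 12 fell in wild type, and 5 and 9 in 35S:YFP-AFL1. The 6 shoot photosynthesis genes were lower at low water potential in both genotypes: their mean level was 5.65 to 5.98 in wild-type control, 3.44 to 4.26 in stressed wild type, 5.79 to 6.0 in 35S:YFP-AFL1 control and 3.39 to 3.50 in stressed 35S:YFP-AFL1. Their part in the changes of the iron genes was not tested.

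The other ferric reductases fell in wild type, 5 of 5 tested, and in 35S:YFP-AFL1 4 of the 5 fell, with FRO4 below background in both groups there. Among all genes tested, 33.4% were called lower for the wild-type response, against 33.3% for that of the transgenic line. FRO6 and FRO7, reductases of green tissue and chloroplasts, fell by 3.14 and 3.17 on the log2 scale in wild type (SE 0.16 and 0.20) and by 3.46 and 3.49 in 35S:YFP-AFL1 (limma adjusted p at or below 3.31e-08 in each). Both had a second probe with a called fall. Whether the probes of these related genes read each other's transcript was not tested. FRO8 fell by 1.1 and 1.29. FRO4 was at least 2.96-fold lower in wild type (adjusted p = 7.08e-05). It passed the filter only through wild-type control, which favours a fall there, so this call is weak support for one. In 35S:YFP-AFL1 its fitted difference was -1.80, counted among the 24 falls above, and -0.17 with slide as a block (adjusted p = 0.89).

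Nicotianamine is a metal chelator that carries iron in the phloem. NAS4 and NAS1, 2 of 3 tested synthase genes, fell by 3.43 and 2.90 in wild type (SE 0.24 and 0.17) and by 3.58 and 3.30 in 35S:YFP-AFL1. Both were called under every alternative run (28 in wild type, 27 in 35S:YFP-AFL1). NAS3 differed by -0.15 and -0.14, without a call. Of all genes, 33.4% were called lower for the wild-type response, and 33.3% for that of the transgenic line. Calls in either direction made up 64.1% and 63.3% of all genes. The 2 of 3 synthase genes called lie near these last shares.

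Transport genes went both ways. In wild type 6 of 15 rose and 4 fell, and in 35S:YFP-AFL1 5 rose and 5 fell. These counts are near the share of all genes called, 64.1% and 63.3%. NRAMP3, which releases iron from the vacuole, rose by 1.81 ± 0.19 (SE) in wild type, and 2.17 ± 0.22 in the 35S:YFP-AFL1 line (limma adjusted p = 2.24e-06 and 1.63e-06). YSL2, a transporter of metal-nicotianamine complexes, rose by 1.42 and 1.81. YSL1 rose by 1.24 in wild type (adjusted p = 0.00416), with 0.229 under slide as a block, and its second probe gave 0.55 (adjusted p = 0.0961). OPT3, a phloem iron transporter whose loss sends a false shortage signal to roots, fell by 1.76 and 1.72. FPN1, an iron exporter of the root stele, was at least 1.59-fold lower in 35S:YFP-AFL1 (adjusted p = 0.00261), with 0.458 under slide as a block.

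Of 13 other regulators tested, 4 rose and 3 fell in wild type, and 3 rose and 5 fell in 35S:YFP-AFL1. The share of all genes called in either direction was 64.1% and 63.3%. IMA1, a small peptide that signals iron shortage, was at least 3.49-fold lower in wild type and at least 2.84-fold lower in 35S:YFP-AFL1 (limma adjusted p = 0.000195 and 6.11e-05), with 0.0891 and 0.286 under slide as a block. IMA1 passed the filter only through control groups, which favours a fall, so these calls are weak support for one. IMA2, a relative of IMA1, was at least 3.42-fold lower in 35S:YFP-AFL1 (adjusted p = 0.00062), with 0.781 under that block. PYE, a repressor that limits the iron shortage response, rose by 1.08 ± 0.13 (SE) in wild type, and 0.96 ± 0.15 in the 35S:YFP-AFL1 line. BHLH115, an activator of the clade Ib genes, fell by 0.94 ± 0.10 in wild type and by 0.92 in 35S:YFP-AFL1, and its second probe gave -1.01 and -1.27. ILR3, which partners PYE and BHLH115, rose by 0.49 in wild type (adjusted p = 0.0055), with 0.382 under slide as a block. BHLH20 fell by 1.30 in 35S:YFP-AFL1, with 0.206 under that block. BHLH101, the clade Ib gene outside the members, was well above background on every array. Its mean level was -2.59 ± 0.56 (SD) in wild-type control and -1.82 ± 1.28 in stressed wild type. In 35S:YFP-AFL1 it was -2.60 ± 0.50 in control and -3.07 ± 0.22 at low water potential. The treatments overlapped in both genotypes.

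Among 9 tested genes of uptake and coumarin export, 1 rose and 6 fell in wild type, and 1 rose and 5 fell in 35S:YFP-AFL1. Over all genes, 30.7% rose and 33.4% fell in wild type, and 30.1% and 33.3% in 35S:YFP-AFL1. NRAMP1, a manganese and iron transporter of the root surface, fell by 0.67 ± 0.13 (SE) in wild type, and MYB10 fell by 1.12 ± 0.24 there. The proton pump gene AHA7, also a root epidermis marker, fell by 1.29 in wild type and was at least 2.89-fold lower in 35S:YFP-AFL1, and BGLU42, which releases coumarins, fell by 0.48 in wild type. ABCG37, a coumarin exporter, rose by 1.31 in 35S:YFP-AFL1. With slide as a block the adjusted p was 0.104 for NRAMP1, 0.171 for MYB10, 0.214 and 0.44 for AHA7 and 0.767 for ABCG37, while BGLU42 kept its call (0.0474). IRT2, a root epidermis transporter closely related to IRT1, was at least 1.67-fold lower at low water potential in 35S:YFP-AFL1 (adjusted p = 0.00121). It was called in 26 of 26 alternatives, with 0.0112 under slide as a block. It passed the filter only through control groups, a choice that can favour a fall. MYB10, also counted as a fall in that line, was below background there in both groups.

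Iron-sulfur assembly genes, 10 of 10 tested, gave 5 rises and 2 falls in wild type, and 4 and 2 in the 35S:YFP-AFL1 line. Calls over all genes made up 64.1% and 63.3%. NEET, an iron-sulfur protein of plastids and mitochondria, fell by 3.86 ± 0.37 (SE) in wild type and by 5.06 ± 0.42 in 35S:YFP-AFL1 (limma adjusted p = 8.05e-07 and 2.53e-07). The scaffold gene ISU1 rose by 0.75 and 1.11, with adjusted p of 0.038 and 0.181 under slide as a block. SUFB rose by 0.82 and 0.73, but its other 2 probes gave 0.05 and 0.22 in wild type and its call was lost under slide as a block (0.106 and 0.164). NFS1, a cysteine desulfurase, rose by 0.62 in wild type, where its second probe gave 0.27 (adjusted p = 0.526). SUFC fell by 0.72 in 35S:YFP-AFL1, where its second probe gave 0.00. Under slide as a block the adjusted p was 0.0533 for NFS1 and 0.94 for SUFC.

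**Figure D4:**
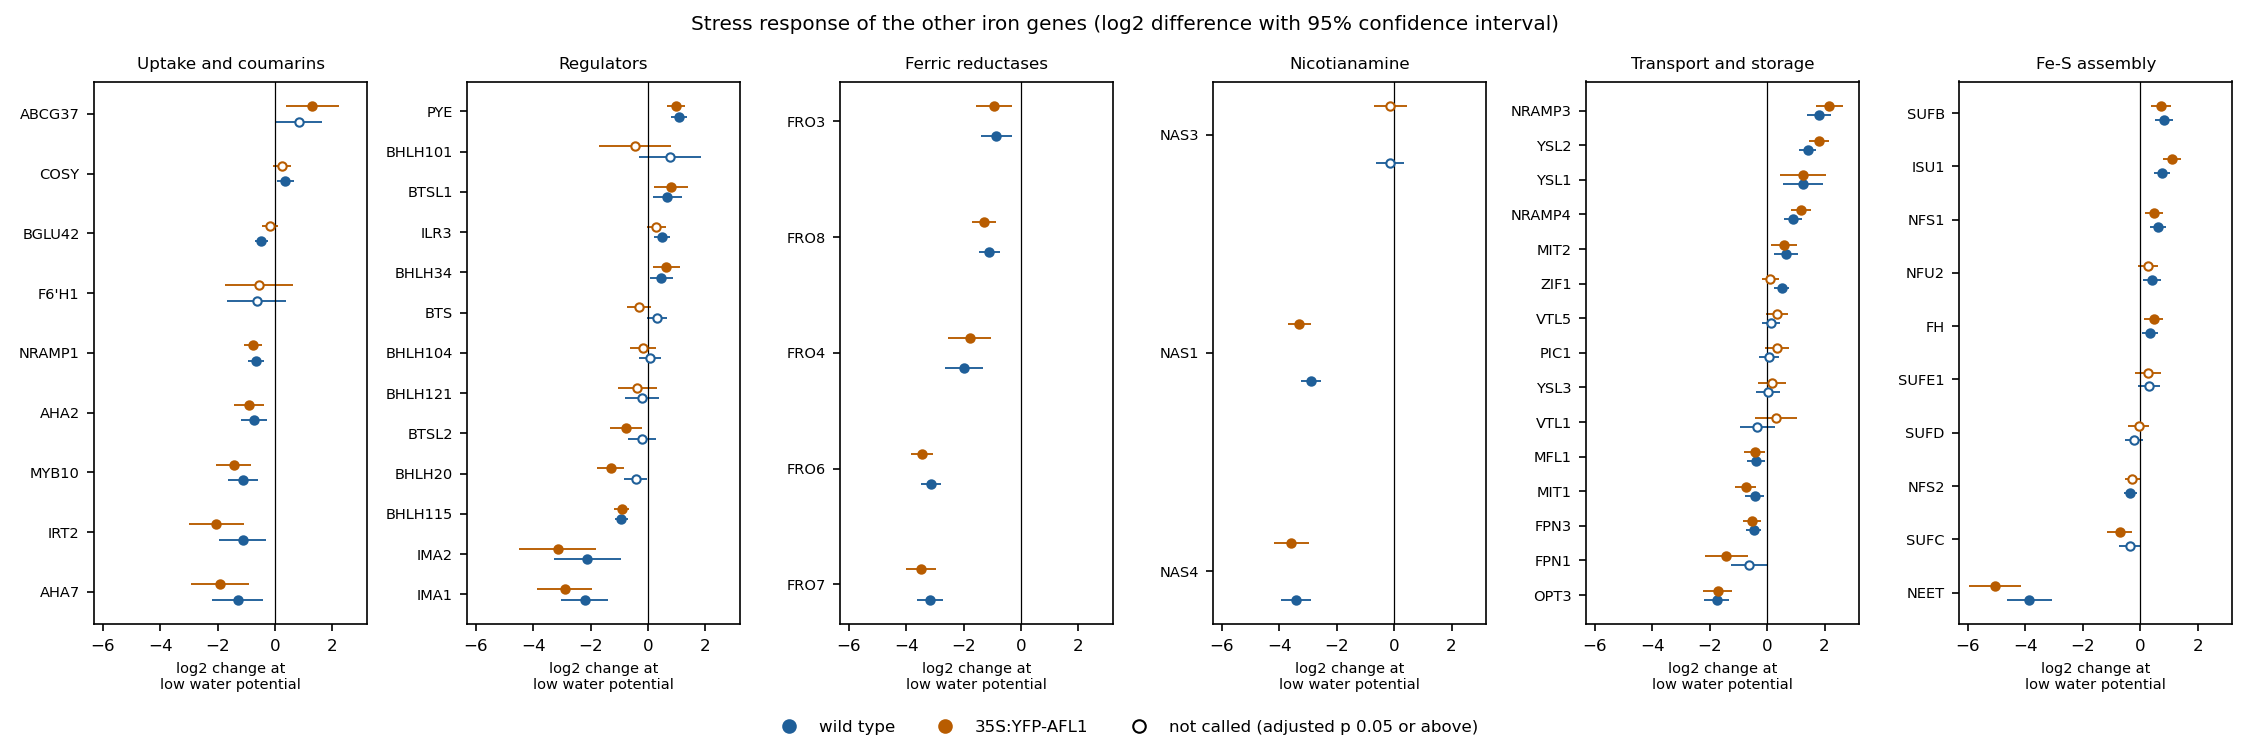
Change at low water potential of the 55 other iron genes tested, as log2 difference with its 95% confidence interval, in wild type (blue) and 35S:YFP-AFL1 (orange); open circles were not called. The 5 reductases, NAS1, NAS4 and NEET lie left of 0 in both genotypes, while NRAMP3 and YSL2 lie right of 0. Values of genes below background, such as IMA1, IMA2 and FRO4 in 35S:YFP-AFL1, are fitted and are no bound.

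Between genotypes, 0 of the 55 other iron genes were called on control plates (8 at an unadjusted p under 0.05), and 1 at low water potential (15 unadjusted). Of all 18308 genes, 0.0218% were called on control plates (2065 genes unadjusted) and 2.17% at low water potential (3692 unadjusted). The 1 call among the 55 iron genes lies close to that share. The called gene was IRT2, which read -4.08, -4.09, -3.61 and -4.00 on the stressed wild-type arrays, of which replicates 2 and 3 were well above background, and -6.27, -5.88 and -6.19 on the 35S:YFP-AFL1 arrays, none of which was. It was at least 1.83-fold lower in 35S:YFP-AFL1 (limma adjusted p = 0.0211), and it was called in 18 of 26 alternatives. The wild-type array on slide 5, at -4.08, stood with the other wild-type arrays, and the value with slide as a block was -2.04 (adjusted p = 0.108).

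Root marker genes also differed between genotypes for some members. The mean level of the 6 endodermis genes was -1.50 to -0.88 on stressed wild-type arrays and -2.08 to -1.76 on stressed 35S:YFP-AFL1 arrays, and CASP1, ESB1 and MYB36 were called lower (3 of 6, against 1.69% of all genes). CASP2 read 0.67 higher without overlap and without a call (adjusted p = 0.0725), and SCR (0.18) and PER64 (-0.79) overlapped. The mean level of the 9 epidermis genes was -1.98 to -1.48 and -3.01 to -2.60, and PRP3 was called lower (1 of 9). The genotypes did not overlap for 6 of these 9, against 14.6% of all genes. COBL9 (0.15), GL2 (-0.08) and LRX1 (-0.32) overlapped. With slide as a block all 4 of these calls were lost, with adjusted p of 0.383 for CASP1, 0.248 for ESB1, 0.227 for MYB36 and 0.114 for PRP3. In control the ranges were -1.12 to -0.77 and -1.87 to -1.41 for endodermis, and -1.98 to -1.16 and -2.70 to -2.06 for epidermis, with 0 called in either list. RSL4, a root hair regulator, was not well above background on any 35S:YFP-AFL1 array. It passed the filter only through stressed wild type, and RBOHC only through the wild-type groups. That choice favours a lower epidermis mean in 35S:YFP-AFL1. The part of the root marker genes in the lower IRT2 level was not tested.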

How the data were processed

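Intensity values of 14 arrays were used. Per the file headers, Agilent Feature Extraction (version 10.7.1.1) produced the authors' scanner files and wrote a background-subtracted processed signal (intensity, linear scale). The deposited series table held these same intensity values without further scaling or centring, with column medians of 137.8 to 288.5 and a largest relative difference of 0.0006, and served as an alternative. As the deposited values are not on a log2 scale, log2 of the processed signal minus each array's 75th percentile was computed here. Outlier spots were dropped where another spot remained. A probe was kept where 3 or more arrays of a group had it well above background, and the probe with the highest mean stood for a gene. A gene that passed through a single group is thereby favoured to read higher in that group than in the others. Probe accessions, without version, were matched to the TAIR10.1 gene table, which named 34358 of 43603 probes (78.8%) and was used for names and neighbours only, since the array design carries another build label. The filter left 18308 genes.

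The comparisons came from 1 limma fit of 4 group means with 10 residual degrees of freedom (limma 3.58.1, R 4.3.3). Calls were at a Benjamini-Hochberg adjusted p under 0.05 over all genes of a comparison, and every adjusted p is from limma. Genes outside the fit had an exact permutation test. Where a probe was below background in a whole group, the text writes "at least" N-fold: each dim array was set to its dimmest probe still well above background, or to the probe's own signal if higher, before the group means were compared. Such a fold holds for the main scaling and is not a strict limit, and an adjusted p beside it belongs to the fitted difference. Some alternatives gave smaller changes. The smallest were -0.72 for BHLH39, -0.75 for IMA1 and -0.81 for FRO4 in wild type, and -0.51 for IMA2 in 35S:YFP-AFL1. The number of arrays limits the precision. In simulated data (200 of 18308 genes changed), 70.5% of genes changed by 1 on the log2 scale and 95% of those changed by 2 were recovered for the wild-type response. For the 35S:YFP-AFL1 response these were 63.5% and 92.5%, and 7.3% of the calls at a change of 1 were false. The simulated noise was independent between arrays and held no slide effect. Far fewer genes changed there than the 64.1% called here in wild type, so these rates need not hold for the data.

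The members and lists were chosen with earlier results of these data known. Besides the members, up to 4 called genes per list and comparison with non-overlapping groups and the largest change were named, and the 5 genes most like FER1 and BHLH39. BHLH101 was named outside this rule, as a clade Ib gene. Alternatives were median centring, quantile normalization, normexp with an offset of 50 (on the median spot signal, as the mean spot signal was not used here) with quantile normalization, other filters, other probes, slide, scan day or replicate number in the fit, groups compared alone, another variance prior, the series table and leaving out each array. Leaving out both wild-type arrays of slides 4 and 5, and each array from the "at least" folds, was chosen after seeing the data. Scan day 1 covers slides 1 and 2, and scan day 2 the other slides. For a genotype difference, the value with slide as a block is that within slide 4 or slide 5. For a stress response it rests on the 1 wild-type pair of slide 2. A stress call kept or lost under this block rests on that pair, and the part of slide was not tested.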

Additional observations from a re-analysis of the deposited data

Results flagged for a closer look

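FER4 in wild-type stress replicate 1 lay apart from the other 3 arrays of its group. Its level was 1.47, the nearest other array was at 1.81, and this gap made up 0.95 of the group's range, above Dixon's 95% critical value for 4 arrays. The second FER4 probe was also lowest on that array, at 0.91. In all, 14 groups of 4 arrays were examined for the 7 members, with 1 such array found, and chance gives about 1 in 20 groups.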

How the results depend on the processing

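The 2 rises of FER1 and FER2 kept their direction and call in both genotypes under every alternative run for them, and no call of a member changed sign. In 35S:YFP-AFL1 the count of members called was 3, and 5 with a replicate block, which added BHLH38 and BHLH39. Between same-numbered arrays the r of deviations from group means ran from -0.117 to 0.397, the highest for wild-type control and stress replicates 1. In no pair of groups did every number exceed 0.1, so the numbers were not taken as pairs. The replicate block also brought BHLH38 past the threshold in wild type (adjusted p = 0.0242), and it left the members' counts in the genotype comparisons at 0. At low water potential the count of members differing between genotypes was 0, but 2 (FER2 and FER3) with both wild-type arrays of slides 4 and 5 left out, and 0 to 2 when leaving out each array in turn. The cause was not tested. FER3 in wild type passed with normexp (-0.64), without stress replicate 3 (-0.83) and with slide as a block (-0.85, the 1 pair on slide 2). BHLH38 in 35S:YFP-AFL1 passed with the 2 groups alone (adjusted p = 0.0235), and BHLH39 there without control replicate 2 (-2.01). Median centring raised the median stress response of all genes by 0.16 (wild type) and 0.20 (35S:YFP-AFL1).

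Over all genes, wild-type stress calls were 11736, and 7683 within scan day 2. Those of 35S:YFP-AFL1 were 11592, and 6565 with slide as a block. Control genotype calls were 4, and 7 with quantile normalization, 34 with slide as a block, 18 within scan day 2, 2 with the replicate block, 1399 without the wild-type arrays of slides 4 and 5, and 2 to 536 when leaving out single arrays (536 without wild-type control replicate 1). Genotype calls at low water potential were 397, and 237 with no filter, 62 with slide as a block, 1 within scan day 2, 199 with the replicate block, 1 with the groups alone, 4148 without those wild-type arrays, and 12 to 3523 when leaving out single arrays (3523 without wild-type stress replicate 1). Calls of the difference of responses were 0, and 20, 11 and 1173 with slide as a block, within scan day 2 and without those wild-type arrays, and up to 754 when leaving out single arrays. Signal over background limits IRT1, FIT, BHLH38, BHLH39 and BHLH100.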
